A study of Homo sapiens with 2 samples.

Results

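Peaks of mTOR, a kinase that senses nutrients and growth signals, were examined over ERVL elements outside the MaLR group. MaLR elements are the large ERVL-related group that holds THE1, MST and MLT1 repeats. Members were the peaks whose centre the deposited annotation places in a repeat of the long terminal repeat (LTR) class with a family other than ERV1, ERVK and ERVL-MaLR. The rule found 244 of 21440 peaks, 1.14% (exact Clopper-Pearson 95% interval 1.0 to 1.29%), and 6.20% (5.47 to 7.0%) of the 3935 LTR-class peaks. By family, 218 were ERVL, 21 Gypsy, 3 of uncertain ERVL type, 1 of uncertain Gypsy type and 1 of an uncertain LTR type. The label therefore fits 218 of them, and the other 26 include 21 from the Gypsy group, which is a separate lineage.

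The study profiled the human cell line MDA-MB-231, derived from a triple-negative breast cancer and cultured with serum and no other treatment, by chromatin immunoprecipitation and sequencing (ChIP-seq). It has 1 mTOR ChIP library and 1 input library, which is chromatin without enrichment and was not analysed here. The data are the peaks of the ChIP library on hg38, with a deposited peak score that is the authors' own whole number whose scale the sources used here do not state. Without a replicate no difference was tested, the intervals cover counting error only, and the depth behind the peaks is unknown.

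ERVL elements are the remains of retroviruses that entered the genome early in mammalian evolution and are named after a leucine tRNA primer site. A full copy carries an internal coding part between a pair of LTRs, and recombination between these leaves a single LTR behind. LTRs hold the promoter and polyadenylation signals of the virus, and some act as promoters or enhancers of nearby host genes. The transcription factor DUX4 is known to switch on HERVL and its LTRs, MLT2A1 and MLT2A2, in the early human embryo. Gypsy elements are LTR retrotransposons, of which only old remains are left in mammals.

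These peaks met annotated start sites at 3 places, and the sequences there are shown because the peaks cover the start of a transcript. The repeat label belongs to the peak centre, and how far each repeat reaches along the sequence was not analysed here. The peaks of 3 members (1.23%, 0.254 to 3.55%) overlapped a RefSeq promoter window, which runs from 250 bases before to 50 after a start site on GRCh38.p14. Of the 3691 other LTR-class peaks 7 did (0.190%, 0.0763 to 0.390%), and of the 13569 other repeat-labelled peaks 33 (0.243%, 0.167 to 0.341%). The interval of the 3 members overlapped those of the other sets, and no test was made. Repeat labels stand only on peaks deposited as intergenic or intron. Peaks of the deposited promoter class therefore cannot enter these shares, which are not rates of promoter binding. The window table is not complete. Each sequence runs from 5′ to 3′ on the strand of the gene, and capitals mark the bases that lie inside the mTOR peak.
LOC112267914: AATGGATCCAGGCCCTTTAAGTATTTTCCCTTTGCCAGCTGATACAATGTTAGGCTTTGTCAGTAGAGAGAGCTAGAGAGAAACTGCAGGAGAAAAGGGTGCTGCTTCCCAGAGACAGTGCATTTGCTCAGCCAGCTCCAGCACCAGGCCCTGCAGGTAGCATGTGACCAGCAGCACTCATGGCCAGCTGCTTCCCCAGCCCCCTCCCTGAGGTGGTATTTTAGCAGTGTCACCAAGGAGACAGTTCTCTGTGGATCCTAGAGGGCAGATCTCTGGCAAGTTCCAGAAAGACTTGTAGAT
LOC105377297: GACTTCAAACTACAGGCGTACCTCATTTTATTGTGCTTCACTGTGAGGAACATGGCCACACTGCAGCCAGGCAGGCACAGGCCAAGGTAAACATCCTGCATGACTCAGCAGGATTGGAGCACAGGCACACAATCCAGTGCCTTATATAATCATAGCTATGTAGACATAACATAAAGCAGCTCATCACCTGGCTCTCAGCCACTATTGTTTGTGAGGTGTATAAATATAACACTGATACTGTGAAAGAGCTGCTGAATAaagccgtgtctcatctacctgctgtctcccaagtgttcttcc
LOC124900641: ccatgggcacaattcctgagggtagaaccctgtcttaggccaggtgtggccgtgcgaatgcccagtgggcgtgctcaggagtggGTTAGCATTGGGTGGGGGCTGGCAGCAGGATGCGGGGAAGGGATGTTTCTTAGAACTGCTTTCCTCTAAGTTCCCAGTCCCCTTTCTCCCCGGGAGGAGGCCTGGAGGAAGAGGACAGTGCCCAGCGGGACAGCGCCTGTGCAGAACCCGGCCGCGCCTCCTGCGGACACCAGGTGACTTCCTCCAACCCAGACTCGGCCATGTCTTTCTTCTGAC

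The LOC112267914 window (chr10:126423799-126424098, plus strand) belongs to a long non-coding RNA and lay wholly inside an LTR41 peak of score 191 (chr10:126423597-126424143), centred 179 bp upstream of the start. That peak was deposited as intergenic, at -1991 bp from LINC00601. The LOC105377297 window (chr4:77636904-77637203, minus strand), also of a long non-coding RNA, had 258 of its 300 bases in an LTR18C peak of score 158 (chr4:77636946-77637261), centred 150 bp upstream. By the deposited annotation this peak was 125350 bp from its nearest start, that of CXCL13. The LOC124900641 window (chr4:125542-125841, minus strand), of a gene annotated as protein-coding, had 216 bases in a MER21C peak of score 30 (chr4:125211-125757). This peak lies in intron 1 of ZNF718, a zinc finger gene, and its centre was 107 bp downstream of the LOC124900641 start, outside the window, and 983 bp from that of ZNF718.

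The windows of LOC112267914 and LOC105377297 were poor in CpG. They had 52% and 46% G and C with 0 and 2 CpG dinucleotides, and the LOC124900641 window had 61.7% with 12, while the median of all 35116 windows was 58.7% with 14. Motifs were searched on both strands. TATAAA, the TATA box, stood in the LOC105377297 window at positions -32 to -27 from the start, inside the peak, and 11.5% of all windows hold it anywhere. ACTACA, the core of the motif bound by RONIN and ZNF143, stood in the same window at -242 to -237, and 8.46% of all windows hold it. The whole RONIN and ZNF143 motif, ACTACA and after any 2 bases TCCC (1.75% of windows), the E-box CACGTG (7.26%) and the ETS core CCGGAA (17.2%) were in none of the 3 windows. A match describes the sequence and is not a mapped binding site.

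The 244 peaks fell on 52 repeat names, and 6 names held 121 of them. MER21C led with 37 peaks, followed by MER77B with 20 and LTR18A with 19. LTR41, LTR67B and HERVL-int had 15 each, MamGypLTR3a had 13 and MER77 had 11. MER70A, MamGypLTR3, LTR16C and LTR41B had 6, 6, 5 and 5, and 20 names had a single peak. The LTRs of HERVL that DUX4 acts on, MLT2A1 and MLT2A2, had 3 peaks in all, with scores of 60, 37 and 64. How many copies of each repeat the genome holds was not used here, so these counts are not enrichments.

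Terminal repeats and not internal sequences carried most of these peaks. Names ending in -int, which mark internal parts, made up 25 of 244 (10.2%, 6.74 to 14.8%). The internal sequence MamGypsy2-I, with 2 peaks, has another ending and is not among them. In ERVL-MaLR they were 1010 of 1810 (55.8%, 53.5 to 58.1%), in ERV1 504 of 1608 (31.3%, 29.1 to 33.7%) and in ERVK 23 of 273 (8.42%, 5.42 to 12.4%). The intervals of the ERVL elements outside MaLR and of ERVK overlapped, and those of the other pair of families lay apart from both. HERVL-int held 15 of the 25, with scores from 21 to 91 and a median of 53, so none of them reached the score of 200 that bounds the top 10% of all peaks. The strongest HERVL-int peak, 91, lay in intron 2 of ITPR2, an inositol trisphosphate receptor gene (chr12:26777281-26777694). Among the internal peaks ERVL-E-int had the highest score, 218, at -3618 bp from the start of RNF215 (chr22:30390713-30391346), and a single ERVL-int peak the lowest, 19, at -1177 bp from RRP7A.

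**Figure D1:**
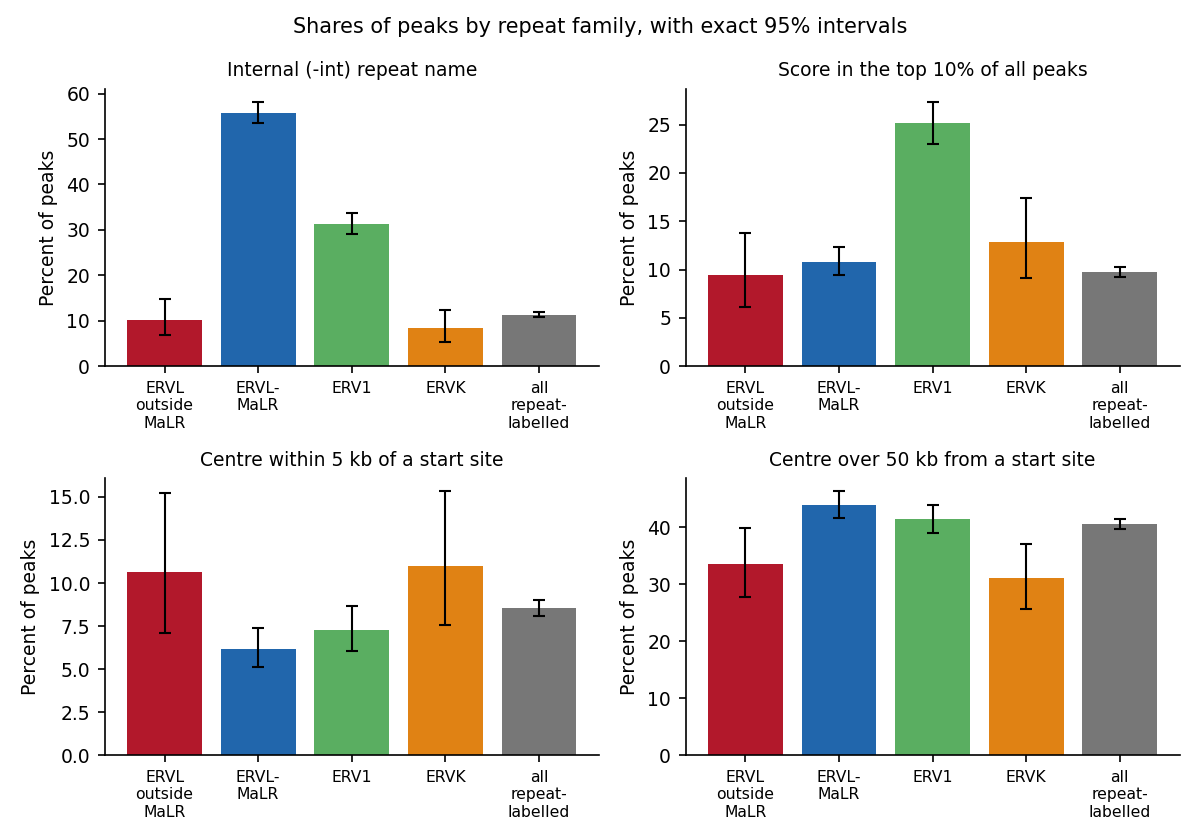
Percent of peaks (y axes from 0) with a repeat name ending in -int, a score in the top 10% of all peaks, a centre within 5 kb of a start site and a centre over 50 kb from one, for ERVL elements outside MaLR, ERVL-MaLR, ERV1, ERVK and all repeat-labelled peaks; bars are shares and error bars exact 95% intervals for counting error. ERVL elements outside MaLR lie near ERVK in the panels of -int names and of distances, with 10.2% such names where ERVL-MaLR has 55.8%. Their share in the top 10%, 9.43%, is nearest to that of all repeat-labelled peaks, 9.73%.

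Scores of these peaks ran from 15 to 718 with a median of 64.5, and the distribution-free 95% interval of this median was 61 to 71. The medians were 69 (68 to 73) in ERVL-MaLR, 92.5 (87 to 97) in ERV1, 78 (69 to 85) in ERVK and 61 (59 to 61) over all peaks. Of the 244 peaks 23 (9.43%, 6.07 to 13.8%) belonged to the top 10% of all peaks by score, which with ties takes in 2147 peaks or 10.0%, and 9.73% of repeat-labelled peaks. The share of these elements was near that background. It was 25.1% (23 to 27.3%) in ERV1, 10.8% (9.38 to 12.3%) in ERVL-MaLR and 12.8% (9.09 to 17.4%) in ERVK. The upper 50% of all peaks, with scores of 61 and above, took in 141 of the 244 (57.8%, 51.3 to 64.1%), where the limit is the median of all peaks, beside 52.3% of repeat-labelled peaks. The other LTR families had as much or more there. This share was 58.1% (55.8 to 60.4%) in ERVL-MaLR, 65.9% (60.0 to 71.5%) in ERVK and 69.5% (67.2 to 71.8%) in ERV1. The score and the width are parts of 1 measurement and rose together, with a Spearman correlation across peaks of 0.48 over these 244 and 0.54 over all peaks. Widths ran from 248 to 2023 bp with a median of 413.5 bp, beside 400 bp over all peaks.

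**Figure D2:**
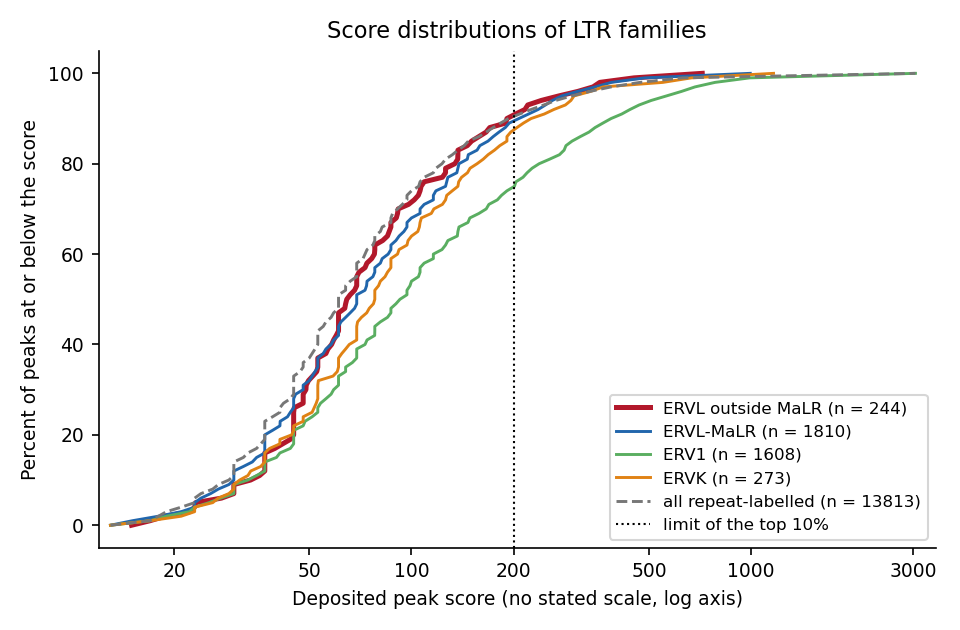
Cumulative distribution of the deposited peak score (x axis, log scale, no stated unit) as percent of peaks at or below each score (y axis), one line for each set of peaks, with the limit of the top 10% at 200 dotted. The line of ERVL elements outside MaLR runs close to those of ERVL-MaLR and of all repeat-labelled peaks, and ERV1 lies to the right of it with a median of 92.5 against 64.5.

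Among the frequent ERVL names LTR41 and LTR41B had the highest medians and HERVL-int and MER77 the lowest, with ranges that overlapped. LTR41, with 15 peaks, had a median of 104, a lowest score of 16 and a highest of 213, and 14 of the 15 lay in the upper 50% of all peaks. LTR41B had scores of 61, 86, 106, 123 and 142, all 5 in the upper 50%, and LTR41C had 69 and 220. LTR18A had a median of 87 (18 to 181) and LTR16C one of 74 (39 to 297). MER77B followed with 67.5 (23 to 259), MER70A with 66 (23 to 90), and LTR67B and MER21C each with 61 (24 to 339 and 15 to 220). MER77 had a median of 53, with 36 as the lowest, and 343 as the highest. LTR33 and the related LTR33A_ had low scores of 46, 45, 37, 30 and 17, all 5 below the median of all peaks and all intergenic.

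Names that begin with LTR and a number, without LTR16 and LTR33, had 57 of 79 peaks in the upper 50% (72.2%, 60.9 to 81.7%). Of all LTR-class peaks 63.3% (61.8 to 64.8%) lay there. Names of the MER series with the ERV3 terminal repeat had 45 of 87 (51.7%, 40.8 to 62.6%) and internal names 12 of 25 (48.0%, 27.8 to 68.7%). The MLT2 names, LTRs of HERVL and its older relatives, had 7 of 12, and the LTR16 names 8 of 14. The intervals of the LTR-numbered and the MER names overlapped.

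**Figure D3:**
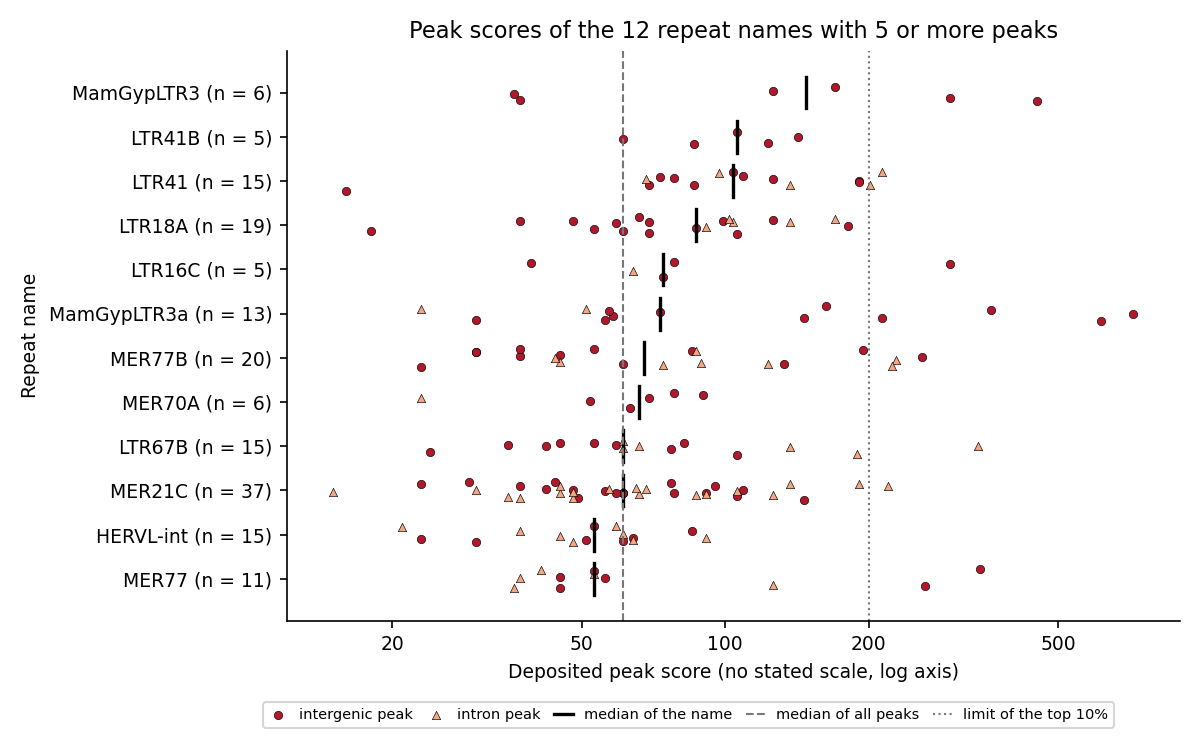
Deposited peak score (x axis, log scale, no stated unit) of each peak in the 12 repeat names with 5 or more peaks (y axis), circles for intergenic and triangles for intron peaks, bars for the median of the name, lines for the median of all peaks (61) and the limit of the top 10% (200). MamGypLTR3, LTR41B and LTR41 have the highest medians, 148, 106 and 104, and every name has at least 1 peak at or below 61.

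Gypsy remains held the 2 highest scores of the set. MamGypLTR3a had 13 peaks with scores of 718, 615, 361, 213, 163, 146, 73, 58, 57, 56, 51, 30 and 23. Its scores fell into 6 of 146 and above and 7 of 73 and below. MamGypLTR3 had 452, 296, 170, 126, 37 and 36, and the internal sequence MamGypsy2-I had 91 and 52. Of the 22 peaks with Mam or Gyp names 6 lay in the top 10% (27.3%, 10.7 to 50.2%), where the background is 10.0% of all peaks, and no test was made. The share was 16.7% over all LTR-class peaks and 25.1% in ERV1, and the interval takes in both. These 22 peaks include MamRep605, of an uncertain LTR type, at 53. They were intergenic in 19 cases (86.4%, 65.1 to 97.1%), an interval that takes in the 66.0% of all LTR-class peaks.

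The top Gypsy peak, 718, was a MamGypLTR3a site on chromosome 6 (chr6:18823443-18824446), 1004 bp wide and 252160 bp from its nearest start, the microRNA gene MIR548A1. The second, 615, lay on chromosome 5 (chr5:173591995-173592923), 12825 bp from the non-coding LOC285593. A MamGypLTR3 peak of 452 (chr15:85192429-85192979) fell inside CSPG4P12, a pseudogene of the chondroitin sulphate proteoglycan gene CSPG4. The MamGypLTR3a peak of 361 (chr2:128469081-128470126) was 150735 bp upstream of HS6ST1, a heparan sulphate sulfotransferase gene. MamGypLTR3 had a further 296 at chr4:4725989-4726420, and MamGypLTR3a 213 at chr9:126008993-126009500, 261063 bp from PBX3, a homeodomain transcription factor gene.

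Outside the Gypsy group the strongest peaks were spread over many names. Both MER76 peaks were high, 452 (chr18:11956450-11957968, 24298 bp upstream of the inositol monophosphatase gene IMPA2) and 341 (chr2:12863794-12864739). MLT2D had 358 within the span of D2HGDH, which encodes a mitochondrial hydroxyglutarate dehydrogenase (chr2:241759933-241760943), besides 153 and 50 elsewhere. MER21B had 348 in intron 3 of PRAG1, a pseudokinase gene (chr8:8358186-8358961). MER77 had 343 at -1980 bp from NRBP2 (chr8:143842298-143843608). LTR67B had 339 in intron 2 of LINC01599 (chr14:50067876-50068570), and LTR16C 297 at 5485 bp from LINC01752 (chr20:10758227-10758924). LTR47A had 273 near the olfactory receptor gene OR2T1 (chr1:248420928-248421864).

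The 3 strongest MER77B peaks were wide. The highest, 259 and 951 bp wide, lay in the T cell receptor alpha locus (chr14:22329433-22330383). The widest peak of the whole set, 2023 bp with a score of 228, was a MER77B peak in intron 2 of its transcript on chromosome 15 (chr15:66932858-66934880), nearest to LINC02206. The other, 224 and 980 bp wide, lay in intron 10 of SYN2, a synapsin gene, with TIMP4, an inhibitor of matrix metalloproteinases, as nearest start (chr3:12171948-12172927).

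The highest peaks of the other frequent names were weaker. MER21C, the most frequent name, peaked at 220 in intron 3 of LIMK1, a kinase that phosphorylates cofilin (chr7:74097855-74098318, 4869 bp from the start). LTR41 reached 213 in intron 1 of ACTL8, an actin-like gene (chr1:17758914-17759632), and 201 within NDUFAF6, a gene for assembly of respiratory complex I. LTR41 also had 137 in DNMT3A, a DNA methyltransferase gene (chr2:25326269-25326748). LTR18A reached 181 at 37737 bp from UCHL1, a ubiquitin hydrolase gene (chr4:41294360-41294970). The LTR41B maximum, 142, was 28218 bp upstream of TEX2 (chr17:64291270-64291687), and the MER70A maximum, 90, was 15670 bp upstream of TTC1 (chr5:159993231-159993629).

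Intergenic sequence held 161 of the 244 peaks (66.0%, 59.7 to 71.9%) and introns held 83 (34.0%, 28.1 to 40.3%). In this table repeat labels stand only on intergenic and intron peaks, so no repeat peak could be a promoter or exon peak. These peaks are therefore set beside other repeats. All repeat-labelled peaks were intergenic in 55.6% and intronic in 44.4%, while all peaks were 43.6% and 37.8%. The other LTR-class peaks were intergenic in 66.1% (64.5 to 67.6%), an interval that lies within that of these elements. MER21C was split evenly, with 18 intergenic and 19 intronic peaks, and HERVL-int had 7 and 8. LTR18A had 14 and 5, MamGypLTR3a 11 and 2, and LTR41B, MamGypLTR3 and LTR33 were intergenic throughout. Of the 83 intron peaks 25 were in a first intron, a count that was not made for other sets of peaks.

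In the RefSeq gene table, which is later than the deposited annotation and has gene spans without exons, 124 of the 244 centres (50.8%) lay within a gene span. These include 42 of the 161 deposited as intergenic, of which 26 fell in the span of a long non-coding RNA gene and 13 in that of a protein-coding gene. For 27 of the intron peaks the nearest start site belonged to another gene than the one around the peak. These gene-span counts were made for the 244 peaks only, so no background stands beside them.

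By the deposited distances, which miss the later RefSeq starts described above, start sites were closer to these peaks than to those of ERVL-MaLR and ERV1, without a test. The median distance was 29631.5 bp, against 41306.5 bp in ERVL-MaLR, 37574.5 bp in ERV1 and 22042 bp in ERVK. Centres within 5 kb of a start numbered 26 of 244 (10.7%, 7.08 to 15.2%), against 6.19% (5.12 to 7.40%) in ERVL-MaLR, 7.28% (6.05 to 8.66%) in ERV1 and 11.0% (7.54 to 15.3%) in ERVK. This share is 8.55% over all repeat-labelled peaks and 26.3% over all peaks. All peaks include the promoter class, which no repeat label can enter, so their shares by distance are not a like background. Over 50 kb from the nearest deposited start lay 82 (33.6%, 27.7 to 39.9%), against 44.0% (41.7 to 46.3%) in ERVL-MaLR, 41.4% (39.0 to 43.9%) in ERV1 and 31.1% (25.7 to 37.0%) in ERVK, beside 40.6% of repeat-labelled and 30.1% of all peaks. The interval did not overlap that of ERVL-MaLR and overlapped those of ERV1 and ERVK. Family ERVL alone had a median distance of 28074 bp, with 11.9% within 5 kb and 32.6% over 50 kb. The 26 Gypsy and uncertain members had a larger median, 42842.5 bp. Of them 0% (0 to 13.2%) were within 5 kb and 42.3% (23.4 to 63.1%) over 50 kb, intervals that take in the shares of family ERVL. By the same distances a single peak, that of MER21C at ZNF718, was within 1 kb of a start, or 0.410% (0.0104 to 2.26%), beside 0.644% of repeat-labelled and 16.8% of all peaks. The LTR41 and LTR18C peaks at the starts of LOC112267914 and LOC105377297 are not counted in it. A low share within 1 kb was set in part by the labelling, which leaves out the promoter class.

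**Figure D4:**
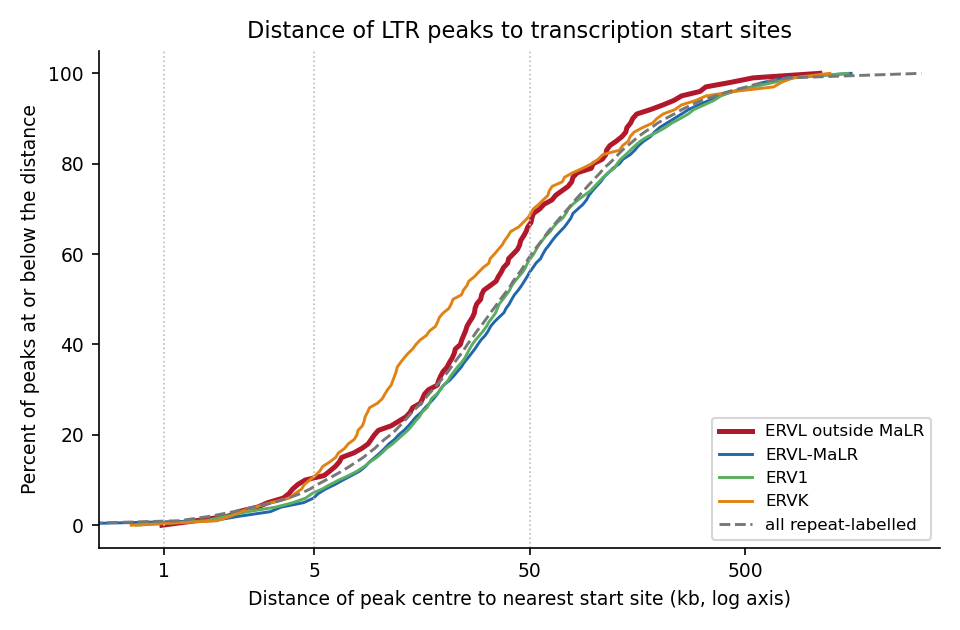
Cumulative distribution of the distance from peak centre to the nearest deposited start site (x axis, kb, log scale) as percent of peaks at or below each distance (y axis), one line for each set of peaks, with 1, 5 and 50 kb dotted. The line of ERVL elements outside MaLR lies between that of ERVK and those of ERV1 and ERVL-MaLR around 50 kb, where 33.6% of its peaks are still farther out.

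The 26 peaks within 5 kb of a start included some of the stronger ones. Beside those at NRBP2, LIMK1, ACTL8 and RNF215, an LTR41C peak of 220 was 3984 bp upstream of PDIA6, a protein disulphide isomerase gene (chr2:10841449-10841944). A MER77B peak of 195 was 1670 bp upstream of C1orf52 (chr1:85261086-85261579). LTR41B had a peak of 86 at -1219 bp from MYO1H, a myosin gene, and LTR41 one of 97 at -3959 bp from B3GALT5, a galactosyltransferase gene. MLT2B4 had one of 76 in intron 1 of ZSCAN26, 2267 bp from its start, and MER77 peaks of 41 and 37 lay in SYT3, a synaptotagmin gene, and NWD1. RRP15 and RRP7A, which encode factors of ribosomal RNA processing, were nearest to an LTR41 peak of 73, at -3809 bp, and to the ERVL-int peak of 19. These genes were picked after the values were seen, and the share of peaks nearest to such genes was not counted.

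The nearest gene was protein-coding for 176 of the 244 peaks (72.1%, 66.1 to 77.7%), beside 68.3% of repeat-labelled and 72.3% of all peaks, and non-coding for 62. In ERVL-MaLR and ERV1 the protein-coding share was 65.8% (63.6 to 68.0%) and 65.0% (62.6 to 67.3%), with intervals that overlapped that of these peaks. The peaks named 240 different genes, and 3 genes, ADAMTS14, LINC02359 and MIR8056, were named by 2 peaks each.

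Few peaks were nearest to the gene groups looked up. ZNF genes, which encode zinc finger proteins, were nearest to 4 (1.64%, 0.448 to 4.14%), beside 1.65% of repeat-labelled peaks and 3.17% of all peaks. They were ZNF707 with 123 over LTR41B, ZNF80 with 82 over LTR67B, ZNF613 with 45 over MER77 and ZNF718 with 30 over MER21C. Olfactory receptor genes were nearest to 3 (1.23%, 0.254 to 3.55%), beside 0.623% of repeat-labelled peaks. Of these OR2T1 and OR14I1, with 273 and 136, belong to LTR47A elements on chromosome 1 (the second at chr1:248670003-248670560), and OR1D5, with 109, to an LTR41 element. The third LTR47A peak, 78, was 29701 bp upstream of HMX1.

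Ribosomal gene expression is a subject of the series. Cytosolic and mitochondrial ribosomal protein genes were nearest to 0 of the 244 peaks. A count of 0 allows a share of up to 1.23% (3 counts), or 1.50% by the exact interval, and these groups were nearest to 0.174% and 0.0941% of repeat-labelled peaks. Of 27 genes that DUX4 switches on in the early embryo, RFPL4B alone was nearest to a peak, at a distance of 420326 bp from a MER68 element with a score of 87. That is 1 of 244 (0.410%, 0.0104 to 2.26%), beside 6 of 13813 repeat-labelled peaks (0.0434%) and 7 of 21440 peaks (0.0326%).

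These peaks rarely stood beside each other. Another peak of the set lay within 10 kb for 2 of the 244 (0.820%, 0.0994 to 2.93%), a pair of LTR18A peaks 2798 bp apart upstream of ADAMTS14, a metalloproteinase gene, with scores of 99 and 87 (chr10:70651619-70652015 and chr10:70648496-70648821). The same count was 167 of 1810 (9.23%, 7.93 to 10.7%) in ERVL-MaLR and 17 of 273 (6.23%, 3.67 to 9.78%) in ERVK. It grows with the size of a set, and ERVK is of a size near that of these 244. A peak of any kind lay within 10 kb for 64 (26.2%, 20.8 to 32.2%), beside 27.9% of repeat-labelled and 32.5% of all peaks. The nearest of these had no repeat label in 21 cases, was a LINE in 20 and another LTR element in 18.

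Along the genome, the share of other LTR-class peaks lay within the interval of these peaks on 23 of 23 chromosomes. Chromosome 1 had 24 (9.84% of the set, against 8.34% of other LTR-class peaks) and chromosome 2 had 23 (9.43% against 8.18%). Chromosome 19 had 15 (6.15%, 3.48 to 9.94%, against 3.49%), among them 4 of the 11 MER77 peaks, and chromosome 8 had 7 (2.87%, 1.16 to 5.82%, against 5.50%). The chromosome 19 share was 5.49% in ERVK, 4.94% over repeat-labelled peaks and 8.59% over all peaks, each within the interval of these peaks. The X chromosome had 1, an MLT2C1 peak of score 69 in an intron of ASMTL.

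**Figure D5:**
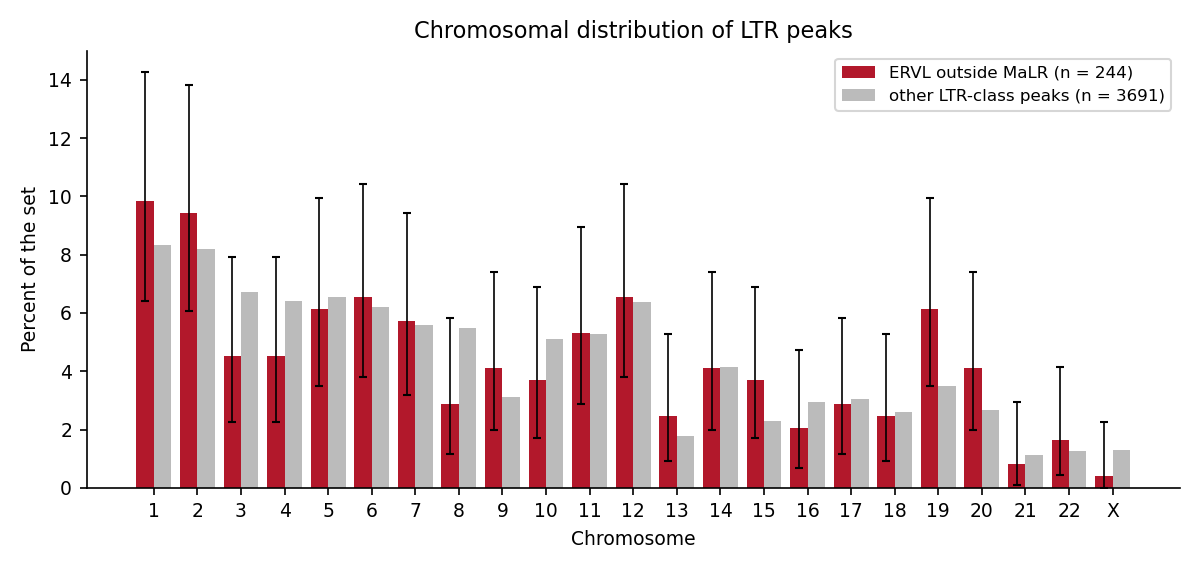
Percent of the set on each chromosome (y axis from 0; x axis, chromosome) for the 244 peaks over ERVL elements outside MaLR and the 3691 other LTR-class peaks; error bars are exact 95% intervals of the first set for counting error. Chromosome 19 holds 6.15% of the first set and 3.49% of the second, and every error bar takes in the height of the grey bar beside it.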

How the data were processed

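Chromatin enriched with an mTOR antibody and input chromatin of MDA-MB-231 cells were sequenced, per the labels' protocols. Trimmomatic 0.36, BWA 0.7.12, Picard 2.0.1, MACS2 2.1.1.20160309 and HOMER 4.11.1, with the build hg38, stand without their settings in the list of tools, per the submitters' processing notes. How reads that align to several places, on which peaks over repeats depend, and duplicate reads were treated is not given in the sources used here. The deposited table holds 1 score per peak, an annotation and the distance to the nearest start site, taken as deposited. The depth is unknown. The input library itself was not analysed here.

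The members and gene lists were chosen with earlier results of these data known. Members were read from the repeat label of the peak centre. Shares have exact Clopper-Pearson 95% intervals and medians binomial ones. Genes and promoter windows came from RefSeq on GRCh38.p14, the assembly of hg38 at a later patch, which held the gene identifier of 243 members. Named are the 15 top-scoring members, those within 1 kb of a start, the top member of each name with 5 or more, members at the listed genes, Gypsy and uncertain members in the top 10%, and the widest, of which 1 is not reported here. Others named were chosen after their values were seen. Alternatives were stricter score limits, family ERVL only, other distances, neighbours counted once and chromosome 19 left out. Parsing and intervals were tested on simulated data. Sequences of the peaks need a genome, which was not used here. Python 3.11.15 was used with numpy 2.4.6, matplotlib 3.10.9, scipy 1.17.1 and pandas 2.3.3.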

Additional observations from a re-analysis of the deposited data

How the results depend on the processing

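Of 60 alternative values 43 lay within the 95% interval of the reported one. In the top-scoring 50% of all peaks the members were 1.31% of peaks, with a median score of 99 and a median width of 466 bp, and 0% lay within 1 kb of a start by the deposited distances, which all shares near a start use here. In the top 10%, which holds 23 members, they were 3.50% of LTR-class peaks, their median width was 904 bp, 4.35% had names ending in -int, 0% lay within 1 kb of a start, 0% had another member within 10 kb, and 56.5% had a protein-coding nearest gene. Both limits select by score, and score and width rise together. With other distances the share near a start was 0% within 100 bp, 10.7% within 5 kb and 0% by the deposited promoter class, which no repeat label can enter. No repeat-labelled peak of any kind was closer than 203 bp to a deposited start, so the 100 bp value says nothing particular about the members. Another member lay within 1 kb for 0% and within 100 kb for 5.74%. By RefSeq gene spans, an alternative chosen after seeing the data, 50.8% of centres lay inside and 49.2% outside a gene. No paired analysis was possible because there is 1 ChIP library, and no replicate could be left out.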
